A study of Rattus norvegicus with 12 samples.

Results

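The genes described here are 10 markers of macrophage scavenging, repair and activation: Arg1, Trem2, Cd14, Msr1, Mrc1, Cd163, Cd68, Nos2, Gpnmb and Marco. They were chosen by name and located as non-control probes that carry these names on the array, and all 10 were found, on 12 probes. Of these, 9 passed the filter on dim probes and were tested among 22718 gene names. Marco did not pass it and is given as values only. Earlier results of these data were known when the members and the gene lists below were chosen. Counts of called genes set beside the share of all genes are thus not independent of that choice. The study profiled calvaria, the roof of the skull, of rats 72 h after surgery at 10 weeks of age, on 12 one-colour arrays. It had 3 groups of 4 arrays.

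In the laser group a rectangular defect of 8 by 3 mm had been cut by an Er:YAG laser (infrared light that removes hard tissue), set to 20 Hz and 220 mJ on the panel, which delivered 127 mJ in each pulse. In the bur group a defect of the same size had been drilled with a rotating bur. For the control group the treatment protocol describes removal of the periosteum with no ablation, whereas the series design calls these bones non-treated. The labels name no strain or sex, and do not say whether the samples of a group came from separate animals. The p-values therefore cover no more than the spread among these samples, which may be technical, and the number of arrays limits the precision. The tissue label was checked against marker genes: Col1a1, Bglap, Dmp1 and Phex of bone cells and Csf1r, Adgre1, Itgam and Aif1 of macrophages were well above background on all 12 arrays.

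Macrophages clear dead cells and debris through surface receptors, digest them in lysosomes, and change their gene expression with the signals they meet. In cell culture, bacterial products and interferon gamma induce Nos2, whose enzyme makes nitric oxide from arginine, while interleukin 4 induces Arg1, whose enzyme turns the same amino acid into ornithine, and Mrc1 (in mouse cells). TREM2 and GPNMB mark lipid-laden and scavenging macrophages in many injured tissues, and osteoclasts, the bone-resorbing relatives of macrophages, also express both.

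Values below are log2 signal minus the log2 of the array's own 75th percentile of signal, so that 1 unit is a doubling and a value can be compared between arrays for a given probe but not between probes. A gene was called where limma's Benjamini-Hochberg adjusted p over all 22718 genes was under 0.05. After laser, 3 of the 9 tested members were called higher and none lower, where 22.3% of all genes were called, 9.26% higher and 13.0% lower. With the replicate number as a block, which treats arrays of the same number as matched, the count was 6 of 9. The share of all genes called was then 25.4%, with 10.8% higher. With array weights, and with only the 2 groups fitted, the count was 1 of 9, where 33.2% and 7.74% of all genes were called. After bur, 4 of 9 were called higher and none lower, where 26.2% of all genes were called, 9.99% higher and 16.2% lower. The median change of the 9 members was 1.28 with laser and 1.77 with bur on the log2 scale, and the median over all genes was 0.02 and 0.00. Every treated value lay above every control value for 4 of 9 members with laser (Arg1, Trem2, Cd14 and Msr1), where this held for 8.87% of all genes and the reverse for 10.1%. With bur it held for 3 of 9 (Trem2, Cd14 and Mrc1), against 9.60% of all genes and 15.7% for the reverse. Between laser and bur no member was called or lay apart (0%, 1.57% and 0.581% of all genes were called, higher or lower without overlap). Both comparisons with control use the same 4 control arrays, so they are not independent of each other.

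The 8 treated arrays shared a slide and the 4 control arrays had another, scanned separately, so that for laser or bur against control the slide, the scan and the group cannot be told apart. On their slide, laser and bur arrays differed in the first number of the array position, which was 2 for laser and 1 for bur. The share of probes well above background was 58.1% to 67.0% per array, and arrays correlated within their group at 0.975 to 0.984 (laser), 0.979 to 0.983 (bur) and 0.948 to 0.980 (control). Control replicate 3 stood apart from the other controls: on the first principal component, which held 49.5% of the variance, the treated arrays lay between -53.1 and -7.43, control 3 at 6.67 and the other controls at 55.5 to 122. Without control 3, limma called 4 members with laser, where 35.2% of all genes were called, and 7 with bur, where 37% were. Without control 1 it called only Cd14 in either comparison, and 5.48% of all genes with laser and 12.3% with bur. In a bulk sample, a change in the number of cells of a type and a change in the RNA per cell cannot be told apart.

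The probe of Cd14, the member called under every setting tried, and the probes of Msr1 and Nos2, the members with 2 probes each, are shown because the results for these genes turn on them. They are Agilent probe letters read 5′ to 3′, with positions of build rn4. For the probes that start at bases 4292 and 3646 of their transcripts only the 30 leading bases are given.
Cd14, base 1050 of the transcript, chr18:29374990-29375049, minus strand: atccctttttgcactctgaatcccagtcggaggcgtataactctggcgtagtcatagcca
Msr1, base 648, chr16:56293586-56293645, plus strand: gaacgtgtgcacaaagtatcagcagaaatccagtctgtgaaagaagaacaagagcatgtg
Msr1, base 4292, chr16:56309938-56309997, plus strand: cctggaagtgctctcaagacttccattatc
Nos2, base 3475, chr10:65070156-65070215, plus strand: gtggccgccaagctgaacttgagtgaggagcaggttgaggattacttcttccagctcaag
Nos2, base 3646, chr10:65072307-65072366, plus strand: ttacagcatctggccctaaataaaatgaca

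Upstream sequence was available for 7 of the 10 members, from RefSeq on build GRCr8 (Trem2, Cd14, Mrc1, Cd163, Cd68, Gpnmb and Marco). PU.1 is a transcription factor of the macrophage lineage whose core motif was searched as GAGGAA on both strands in the 250 bases before each gene start. It occurred in 6 of the 7 windows, all but that of Cd163, and in 23.3% of the 33469 windows of all genes. The AP-1 motif TGANTCA occurred in the windows of Cd68 and Gpnmb and in 6.34% of all windows. The motif CACGTG of the MiT factors (5.59% of windows) and the STAT motif TTCNNNGAA (7.67%) were in no member's window. None of these motifs contains another, and a match describes letters, not a bound site. The windows of Trem2 and Cd14, which were called higher, and of Cd163, whose mean was lower after ablation, are shown with the PU.1 core in capitals, in the direction of the gene.
Trem2, chr9:20151780-20152029, minus strand: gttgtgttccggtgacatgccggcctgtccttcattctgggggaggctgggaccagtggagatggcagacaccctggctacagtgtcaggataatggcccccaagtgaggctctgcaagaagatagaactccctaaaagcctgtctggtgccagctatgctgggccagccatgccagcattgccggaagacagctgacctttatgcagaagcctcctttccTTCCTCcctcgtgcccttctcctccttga
Cd14, chr18:28611159-28611408, minus strand: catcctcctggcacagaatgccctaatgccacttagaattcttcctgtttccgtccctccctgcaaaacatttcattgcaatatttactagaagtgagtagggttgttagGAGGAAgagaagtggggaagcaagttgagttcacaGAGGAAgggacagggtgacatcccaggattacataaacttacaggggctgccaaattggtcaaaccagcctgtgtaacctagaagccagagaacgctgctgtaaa
Cd163, chr4:158770524-158770773, plus strand: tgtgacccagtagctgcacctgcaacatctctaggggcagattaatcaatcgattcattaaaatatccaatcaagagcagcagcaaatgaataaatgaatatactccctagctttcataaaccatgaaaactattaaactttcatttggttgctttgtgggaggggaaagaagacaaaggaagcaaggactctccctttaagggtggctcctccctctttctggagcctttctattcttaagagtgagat

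The capitals start 29 bases before the gene start in Trem2 and 140 and 105 bases before it in Cd14. The Trem2 match is on the opposite strand, read as TTCCTC.

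Among the surface receptors, Cd14, the co-receptor that hands bacterial lipopolysaccharide to TLR4, had the smallest p of the members in both comparisons with control. Its log2 signal was 1.35, 2.08, 1.16 and 1.36 on laser replicates 1 to 4, 1.83, 2.22, 1.78 and 1.07 on bur replicates, and -0.48, 0.31, 0.24 and -1.28 on control replicates. Every treated array lay above every control array. Cd14 rose by 1.79 with laser (SE 0.36, limma adjusted p = 0.013), which is 3.46-fold (95% interval 1.998 to 5.996), and by 2.03 with bur (SE 0.36, limma adjusted p = 0.0055), which is 4.08-fold (interval 2.36 to 7.07). Both calls held in each of the 12 fits that left out 1 array and in each of the 10 other settings.

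Trem2 encodes a receptor for lipids and dead-cell debris that signals through the adaptor TYROBP. Its probe was spotted 10 times on each array, and the SD over these spots was 0.04 to 0.07 on the log2 scale. Trem2 was at 2.82, 4.14, 3.04 and 3.12 on laser arrays, 3.03, 3.91, 3.67 and 2.95 on bur arrays, and -0.03, 2.58, 2.49 and -1.07 on control arrays. All 8 treated arrays were above all controls, but the controls fell into a pair above 2 (replicates 2 and 3) and a pair below 0 (replicates 1 and 4). The range was 2.50-fold among laser arrays, 1.95-fold among bur arrays and 12.6-fold among controls. Trem2 rose by 2.29 with laser (SE 0.72, limma adjusted p = 0.042) and by 2.40 with bur (SE 0.72, limma adjusted p = 0.032), or 4.88-fold (interval 1.64 to 14.6) and 5.26-fold (1.77 to 15.7). The call held under 7 of 10 alternative settings for laser and 8 of 10 for bur. It held in 2 of 12 fits that left out 1 array for laser and in 6 of 12 for bur. Its change ranged from 1.60 to 2.82 with laser over those fits and from 1.71 to 2.93 with bur.

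Msr1 encodes the class A scavenger receptor, which binds modified lipoproteins and bacterial surfaces. Its brighter probe, at base 4292 of the transcript, was at -0.44, -0.03, -0.53 and -0.39 on laser arrays, 0.04, 0.03, 0.62 and -1.11 on bur arrays, and -2.34, -0.99, -1.13 and -3.25 on control arrays. Laser values did not overlap control values, while bur replicate 4 fell between controls 2 and 3. Msr1 rose by 1.59 with laser (SE 0.48, limma adjusted p = 0.038, held in 4 of 12 fits without 1 array) and by 1.82 with bur (SE 0.48, limma adjusted p = 0.020, held in 10 of 12). Under alternative settings the call held in 7 of 10 for laser and 9 of 10 for bur. In a fit over all 45598 probes, the other probe, at base 648, changed by 1.69 with laser (limma adjusted p = 0.048) and by 2.00 with bur (limma adjusted p = 0.022), while the probe at base 4292 had an adjusted p of 0.064 with laser, which did not pass, and of 0.030 with bur in the same limma fit. Both probes put controls 1 and 4 lowest and bur replicate 3 highest.

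Mrc1, the mannose receptor CD206, did not pass the test, narrowly so with bur. It was at -2.35, -1.92, -2.98 and -3.67 on laser arrays, -1.87, -1.73, -3.08 and -3.11 on bur arrays, and -4.11, -3.38, -3.21 and -4.13 on control arrays. Bur values lay above all controls, with replicates 3 and 4 close to them, and laser replicate 4 fell among the controls. Laser minus control was 0.98 (SE 0.43, limma adjusted p = 0.12, or 0.048 when the replicate number was a block), and bur minus control was 1.26 (SE 0.43, limma adjusted p = 0.051). With bur it passed under 7 of 10 alternative settings and in 4 of 12 fits without 1 array. In laser and bur alike, replicates 1 and 2 were higher than replicates 3 and 4.

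Cd163, the receptor that takes up haemoglobin bound to haptoglobin, had lower group means after ablation and did not pass. It was at 0.22, -0.57, -0.89 and -0.93 on laser arrays, 0.11, -0.06, -1.40 and -0.94 on bur arrays, and 0.85, -0.29, -0.54 and 0.73 on control arrays. Controls 1 and 4, which were lowest for Trem2, Cd14, Msr1, Gpnmb and Cd68, were highest for Cd163. Laser minus control was -0.73 (SE 0.42, limma adjusted p = 0.22) and bur minus control was -0.76 (SE 0.42, limma adjusted p = 0.19), with groups that overlapped.

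Marco encodes a scavenger receptor of macrophages in lung and lymphoid tissue, and its probe lies on unplaced sequence of rn4 (chrUn:9449917-9450079). It was well above background on 1 laser, 2 bur and 0 control arrays. Its values were -7.67, -7.00, -6.70 and -7.25 on laser arrays, -6.65, -6.39, -8.18 and -7.32 on bur arrays, and -8.69, -8.53, -8.73 and -8.86 on control arrays. All treated values exceeded all control values, yet most treated values were themselves not well above background. Against a floored control mean, the mean was 1.06-fold higher with laser and 1.07-fold higher with bur, so the size of the change was not measurable here. In that control mean every array takes the higher of the probe's signal and the lowest signal well above background there. The latter is taken over all probes, so the folds are no lower limit for a given probe.

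**Figure D1:**
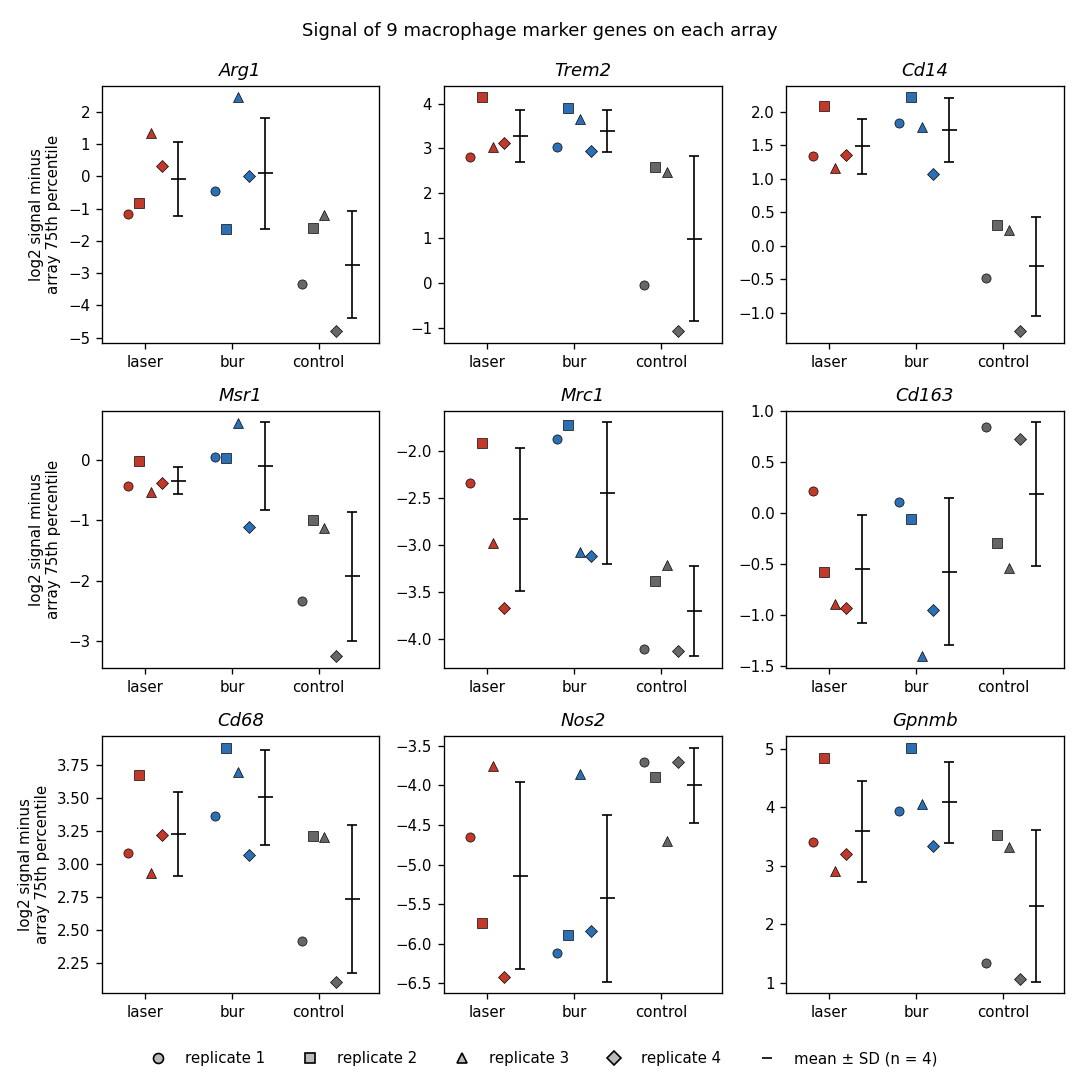
Log2 signal minus the array's 75th percentile for the 9 tested members on each array, with laser, bur and control from left to right, replicate numbers as symbols and mean ± SD beside them. Cd14 and Trem2 separate all treated from all control arrays, and controls 1 and 4 lie apart from controls 2 and 3 in most panels.

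Among the lysosomal members, Gpnmb encodes a membrane glycoprotein and its probe was spotted 10 times on each array, with an SD over spots of 0.05 to 0.10. It was at 3.40, 4.84, 2.92 and 3.20 on laser arrays, 3.93, 5.02, 4.05 and 3.34 on bur arrays, and 1.34, 3.52, 3.33 and 1.07 on control arrays. Controls 2 and 3 overlapped the laser arrays and control 2 the bur arrays, while controls 1 and 4 lay below all treated arrays. Laser minus control was 1.28 (SE 0.62, limma adjusted p = 0.15, or 0.041 with the block) and bur minus control was 1.77 (SE 0.62, limma adjusted p = 0.054). Replicate 2 was highest in all 3 groups.

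Cd68, a lysosomal glycoprotein used as a general macrophage marker, differed less. It was at 3.08, 3.68, 2.93 and 3.22 on laser arrays, 3.37, 3.88, 3.70 and 3.07 on bur arrays, and 2.41, 3.21, 3.20 and 2.11 on control arrays. The groups overlapped. Laser minus control was 0.49 (SE 0.28, limma adjusted p = 0.22) and bur minus control was 0.77 (SE 0.28, limma adjusted p = 0.063).

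Of the arginine-using enzymes, Arg1 was at -1.16, -0.82, 1.33 and 0.32 on laser arrays, -0.46, -1.64, 2.44 and -0.00 on bur arrays, and -3.33, -1.61, -1.19 and -4.80 on control arrays. Laser values did not overlap control values, bur replicate 2 fell to the level of control 2, replicate 3 was highest in all 3 groups, and controls 1 and 4 were lowest. Arg1 rose by 2.82 with bur (SE 0.96, limma adjusted p = 0.049), which is 7.06-fold (95% interval 1.65 to 30.2). The call held in 2 of 12 fits that left out 1 array and under 6 of 10 alternative settings. Laser minus control was 2.65, or 6.27-fold (SE 0.96, interval 1.47 to 26.9, limma adjusted p = 0.066, or 0.028 with the block). Its range among bur arrays was 17.0-fold, the widest of the 9 members there, and among controls it was 12.2-fold.

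Nos2 had 2 probes, of which 1 passed the filter. The brighter one, at base 3475, was at -4.65, -5.74, -3.75 and -6.42 on laser arrays, -6.12, -5.89, -3.86 and -5.83 on bur arrays, and -3.70, -3.90, -4.70 and -3.70 on control arrays. Replicate 3 was the highest treated array in both treatments and reached the level of the controls, while replicate 3 was the lowest control. Laser minus control was -1.14 (SE 0.60, limma adjusted p = 0.18) and bur minus control was -1.43 (SE 0.60, limma adjusted p = 0.098). The probe at base 3646 was well above background only on laser replicate 3, at -5.13, and bur replicate 3, at -5.07, and lay between -8.83 and -8.49 on the controls. No control array measured this probe above background, so the size of its difference from control was not measurable. Against a control mean built as for Marco it was 1.06-fold higher with bur, and with laser the mean did not exceed that control mean. Both probes thus had their highest treated signal on replicate 3, the detected probe did not pass, and the other was too dim to give a direction.

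**Figure D2:**
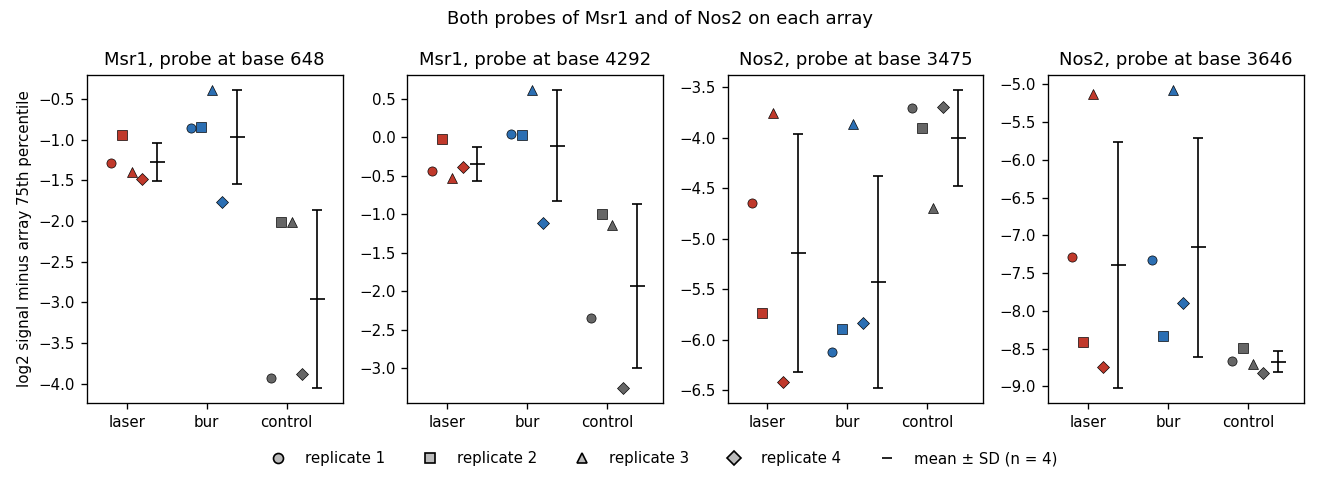
Log2 signal minus the array's 75th percentile for both probes of Msr1 and both probes of Nos2 on each array, with mean ± SD of 4 arrays beside each group. The Msr1 probes show the same pattern, and the Nos2 probes share the high treated replicate 3, the probe at base 3646 being not well above background on any control (-3.75 and -3.86 at base 3475, -5.13 and -5.07 at base 3646).

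Laser was set against bur to compare the means of ablation. No member was called and no gene in the whole table was (0% of 22718, with 574 at an unadjusted p under 0.05 in limma). The differences of the 9 members, laser minus bur, lay between -0.50 for Gpnmb and 0.29 for Nos2. The narrowest 95% interval was that of Cd68, -0.28 (-0.89 to 0.34), and the widest that of Arg1, -0.17 (-2.27 to 1.93). Gpnmb was lower with laser than with bur in 4 of 4 pairs of the same replicate number, by 0.14 to 1.14, and its difference of -0.50 had an interval of -1.85 to 0.86. For Trem2 the difference was -0.11 (interval -1.68 to 1.47) and for Cd14 -0.24 (interval -1.03 to 0.56). The group means ran bur, laser, control from high to low for Trem2, Cd14, Msr1, Mrc1, Cd68, Gpnmb and Arg1, and the step from bur to laser was within the spread of the arrays in each.

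**Figure D3:**
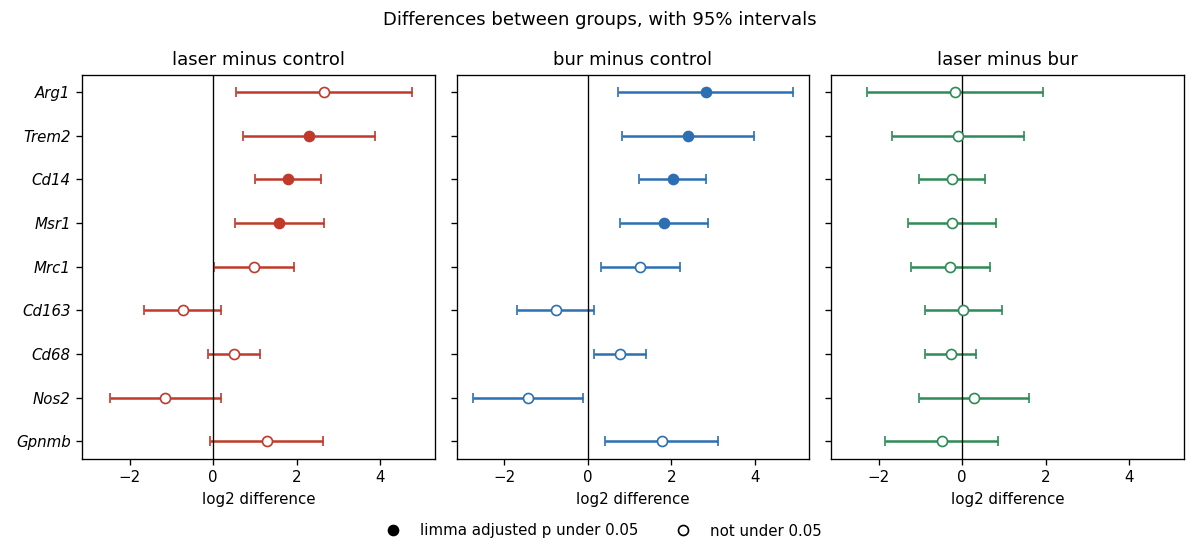
Log2 differences of the 9 members for laser minus control, bur minus control and laser minus bur, as points with 95% intervals from limma (filled where the adjusted p is under 0.05). Trem2, Cd14 and Msr1 are filled in both comparisons with control and Arg1 in bur minus control, and all intervals of laser minus bur span 0.

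Seen array by array, the members did not move as 1 block. Replicate 2 was the highest laser array for 6 of 9 members, the highest bur array for 5 and the highest control for 5. Control 4 was the lowest control for 7 of 9 and bur replicate 4 the lowest bur array for 6. The closest pair of members, by the root mean square (RMS) difference of their values after subtracting each gene's mean over the 12 arrays, was Cd14 with Msr1 (0.33), followed by Cd14 with Gpnmb (0.48). The most distant pair was Arg1 with Cd163 (2.46), and Arg1 with Nos2 came next (2.30).

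**Figure D4:**
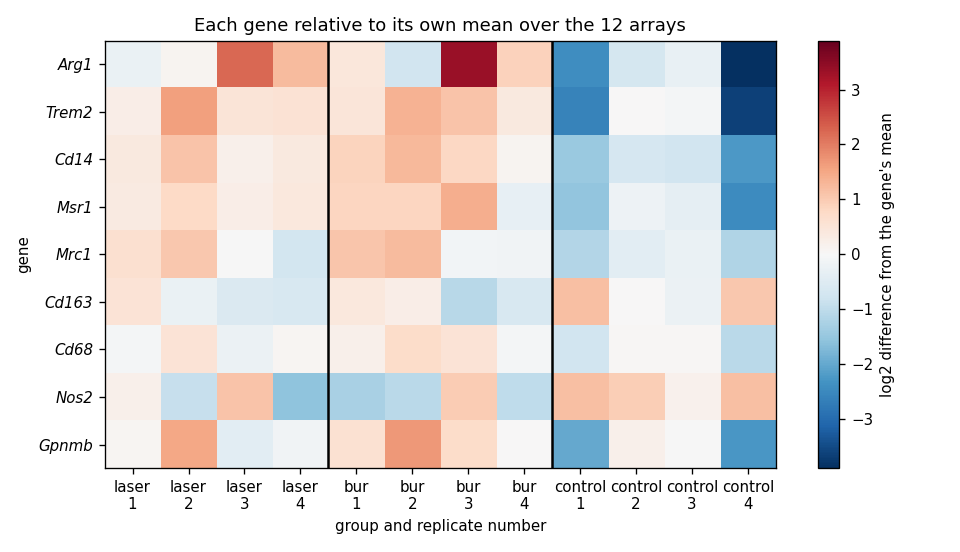
Each member relative to its own mean over the 12 arrays (log2 scale, red above and blue below), with laser, bur and control arrays from left to right. Controls 1 and 4 are blue for 7 of the 9 members and red for Cd163 and Nos2, and the treated replicates 3 are darkest for Arg1.

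Across 14683 genes with a symbol, the genes nearest to each called member by the same RMS difference were sought. Nearest to Trem2 were Has2, a hyaluronan synthase gene (RMS 0.37, against a median of 1.51 over all genes searched), Lilrb4, an inhibitory receptor of myeloid cells (0.37), and Rgs1, a regulator of G-protein signalling in leukocytes (0.40). Nearest to Cd14 were Erbb3 (0.22, median 1.06), Lgmn, a lysosomal protease (0.27), and the folate receptor gene Folr2, which marks tissue macrophages (0.28). Nearest to Msr1 were C3ar1, the receptor of complement C3a (0.26, median 1.08), LOC103691468 (0.29) and the chemokine gene Ccl3 (0.29). Nearest to Arg1 were Hspa1a, a heat shock chaperone gene (0.48, median 1.86), Car4, a carbonic anhydrase gene (0.75), and Slc2a1, a glucose transporter gene (0.84). RMS differences tend to grow with a member's own SD over the 12 arrays. That SD was 1.93 for Arg1, 1.55 for Trem2, 1.09 for Msr1 and 1.07 for Cd14.

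The other genes around these members were counted by list. Of 20 other macrophage and monocyte markers, 2 were higher and 0 lower with laser, and 5 were higher and 0 lower with bur (median change 0.62 and 0.74, against 0.02 and 0.00 over all genes). Over all genes 9.26% were called higher with laser, near the share of this list, and 9.99% with bur. Ms4a7, a membrane gene of tissue macrophages, rose by 1.83 with laser (SE 0.39) and 2.11 with bur, and Aif1, which encodes the cytoskeletal protein IBA1, by 1.08 (SE 0.29) and 1.18. Adgre1, the gene of a classic surface antigen of rodent macrophages, rose by 1.22 with bur (SE 0.33, limma adjusted p = 0.022) and was at 0.99 with laser (limma adjusted p = 0.051). Csf1r, the receptor for macrophage colony-stimulating factor, rose by 0.88 with bur (SE 0.26, limma adjusted p = 0.030) and was at 0.59 with laser (limma adjusted p = 0.11). Itgam was at 0.06 with laser and 0.30 with bur and did not pass.

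Of 18 tested partners of TREM2 and lipid-handling macrophage genes, 4 were higher and 1 lower with laser, and 9 were higher and 0 lower with bur (median 0.63 and 0.94). Fabp5, a fatty acid-binding protein gene, rose by 1.67 with laser (SE 0.41) and by 2.00 with bur (SE 0.41), and the lysosomal protease gene Ctsl by 1.18 and 1.44 (SE 0.31 each). Apoe, the lipid carrier that TREM2 binds, rose by 1.76 with bur (SE 0.59, limma adjusted p = 0.046, held in 2 of 12 fits without 1 array). The tetraspanin genes Cd63 and Cd9 rose by 1.08 and 0.88 with laser, and their bur means were not lower than their laser means. Cd63 had a mean of 3.92 with laser, 4.03 with bur and 2.83 in controls. For Cd9 these means were -0.96, -0.83 and -1.85. Of 17 other scavenger receptor genes, 4 were higher and 1 lower in each comparison. Cxcl16, which binds oxidised lipoprotein, rose by 1.27 with laser (SE 0.33, limma adjusted p = 0.024) and also passed with bur, Lgals3, the galectin 3 gene, rose by 1.33 with bur (SE 0.32), and Stab2, the hyaluronan-clearing receptor of sinusoidal endothelium, fell by 1.87 with laser and by 1.54 with bur (SE 0.44 each).

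Of 11 lipopolysaccharide recognition genes, 4 were higher and 1 lower with laser, and 5 were higher and 0 lower with bur (median 0.44 and 0.50). Tlr2, the receptor of bacterial lipopeptides, rose by 0.92 with laser and 1.18 with bur (SE 0.28 each), and Ly96, the MD-2 subunit that holds lipopolysaccharide on TLR4, by 0.80 and 0.89 (SE 0.19 each). Cd180 rose by 1.47 with laser and 1.43 with bur (SE 0.38 each), but with another background correction, normexp, it was at 0.15 and -0.09 and no longer passed. Of 14 genes of arginine and nitric oxide metabolism, 3 were higher and 2 lower with laser, and 3 were higher and 0 lower with bur. Oat, which turns ornithine towards proline and glutamate, rose by 0.77 with bur (SE 0.16). Gch1, which makes the cofactor of nitric oxide synthases, fell by 1.08 with laser (SE 0.32, limma adjusted p = 0.037, lost with the replicate block at 0.052). Arg2, the mitochondrial arginase gene, is counted as higher in both comparisons. It was well above background on all 8 treated and on 0 control arrays, so these calls rest on control signals below background. Against a control mean built as for Marco, its mean was 1.80-fold higher with laser and 1.59-fold higher with bur, which is no lower limit. With normexp its changes were -0.06 and -0.26 and did not pass. Agmat, also counted as higher in both, was at 0.38 with laser and 0.26 with bur under normexp and did not pass.

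Of 16 other classical activation genes, 4 were higher and 1 lower with laser, and 3 were higher and 1 lower with bur (median 0.22 and 0.38). The interferon-induced chemokine gene Cxcl10 rose by 2.47 with laser (SE 0.71), and Socs3, a cytokine signalling inhibitor, by 1.01 and 1.11 (SE 0.22 each). Cxcl11 was well above background on 3 laser, 2 bur and 0 control arrays. Against a control mean built as for Marco it was 2.66-fold higher with laser and 1.78-fold higher with bur, which is no lower limit. With normexp it no longer passed. Of 23 other alternative activation and repair genes, 6 were higher and 2 lower in each comparison (median 0.41 and 0.55). Ccl24, a chemokine for eosinophils, rose by 1.62 with laser and 1.47 with bur (SE 0.30 each), Vegfa, the angiogenic factor gene, by 1.13 with laser (SE 0.32), Folr2 by 1.72 with bur (SE 0.50), and Hmox1, the haem oxygenase gene, by 1.52 with bur (SE 0.50). Members of lists named for classical and for alternative activation were thus called higher side by side, but some of these calls rest on dim probes. Il12b, counted as higher with laser and bur, and Pdgfb and Socs1, counted with laser, were well above background on 0 control arrays. With normexp none of them passed. Of the classical genes called higher with bur, only Socs3 also passed with normexp (1.01, limma adjusted p = 0.0031). Among the 4 MiT factor genes, which drive lysosomal genes and, in mouse and human cells, Gpnmb, Tfeb rose by 0.67 with laser and 0.68 with bur (SE 0.20 each), although with normexp it did not pass with bur (0.28, limma adjusted p = 0.078), and Mitf fell by 0.66 with bur (SE 0.21).

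**Figure D5:**
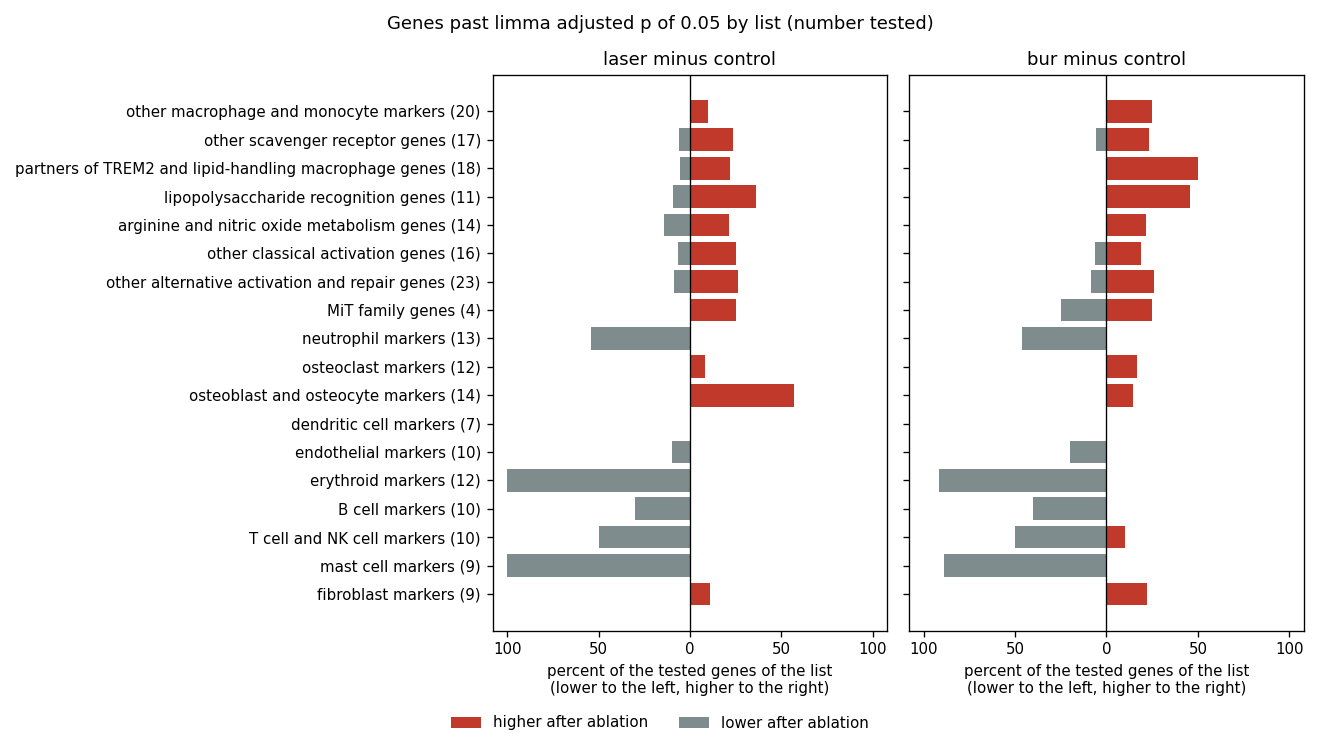
Percent of the tested genes of each list past an adjusted p of 0.05 in limma, with those higher after ablation to the right of 0 and those lower to the left, for laser minus control and bur minus control (number tested in brackets). The macrophage-related lists have more genes higher than lower, as do osteoblast and osteocyte markers (8 of 14 higher with laser, 2 of 14 with bur), and erythroid, mast cell and neutrophil lists lie to the left.

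Markers of other cell types moved with the groups too. Erythroid markers fell in 12 of 12 genes with laser and 11 of 12 with bur, mast cell markers in 9 of 9 and 8 of 9, and neutrophil markers in 7 of 13 and 6 of 13. B cell markers fell in 3 of 10 and 4 of 10, and T cell and NK cell markers in 5 of 10 in each, with 1 higher with bur. The mean log2 signal over the erythroid list was -0.21, -1.88, -1.54 and -1.82 on laser arrays, -1.25, -0.37, -2.42 and -1.08 on bur arrays, and 1.14, 0.72, -0.45 and 1.83 on control arrays. Controls 1 and 4, lowest for Trem2, Cd14, Msr1 and Gpnmb, were thus highest for erythroid markers, and control 3 was within the range of treated arrays. The neutrophil list lay at -1.08 to 0.38 on laser arrays, at -0.75 to 0.63 on bur arrays, and at 1.61, 1.32, 0.11 and 2.25 on control arrays, in the same order among controls as the erythroid list. Every erythroid and neutrophil marker was well above background on at least 1 array of each group.

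Fibroblast markers, of which 1 of 9 was called higher with laser and 2 of 9 with bur, had a mean of 1.56 to 2.02 on laser arrays, 1.12 to 2.27 on bur arrays, and 0.02, 0.79, 1.86 and -0.51 on control arrays, the reverse of the erythroid order among controls. Osteoblast and osteocyte markers were called higher for 8 of 14 genes with laser and 2 of 14 with bur, and lower for none (median 0.87 and 0.34), among them Dmp1 at 1.56 and Phex at 1.62 with laser. Their mean lay between 1.81 and 2.36 on laser arrays, 1.41 and 1.98 on bur arrays, and 1.04 and 1.55 on control arrays, where laser and control did not overlap and controls 1 and 4 were lowest. Osteoclast markers, relevant because osteoclasts can express Trem2 and Gpnmb, were called higher for 1 of 12 genes with laser and 2 of 12 with bur. The gene called in both was Tnfrsf11a, whose probe was dim. With normexp it was at 0.17 with laser and -0.01 with bur and did not pass. The mean of the osteoclast list lay between -1.30 and -0.36 on laser arrays, -1.17 and -0.21 on bur arrays and -1.42 and -0.56 on control arrays, which overlap. The mean over the 20 other macrophage markers was 0.52 to 1.03 on laser, 0.17 to 0.97 on bur and -0.19 to 0.35 on control arrays, where bur replicate 4 was the only treated array within the control range. The part of each of these lists in the changes of the members was not tested.

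The authors' deposited table of comparisons holds 9 of the 10 members, without Marco, and gives an adjusted p under 0.05 for 8 of the 9 in laser against control and in bur against control. The exception in both is Nos2. Cd163 is lower there, at -0.79 with laser and -0.80 with bur (adjusted p 0.044 and 0.040 in the authors' deposited table), and the others are higher. That table calls 3534 of its 23269 lines higher and 3452 lower with laser, and 3692 and 3941 with bur, and it calls 0 members and 0 lines between laser and bur. The limma test used here, run on the authors' deposited log2 values, called 3 members with laser and 5 with bur. The share of all genes called was then 27% and 30.2%. The authors' calls come from the same arrays and are not independent of those above.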

How the data were processed

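RNA from 12 rat calvaria samples had been hybridised to Agilent arrays in 1 colour (Cy3), with 200 ng of total RNA labelled per the labels' protocols. Agilent Feature Extraction 11.0.1.1 (protocol GE1_1100_Jul11, per the file headers) gave the deposited intensity of each spot, corrected for background and spatial trend but not scaled across arrays. A log2 expression table and 3 comparison tables (log2 change, p-value) were deposited by the authors as well. The log2 table is named as quantile-normalized, and further steps are not stated in the sources used here. Of the other deposited columns, the flags for background, saturation and outliers were used as the scanner software set them.

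Each array held 62976 spots, 58717 of them not control spots, on 45598 probes. The log2 of the processed intensity was taken minus the array's 75th percentile, flagged outlier spots were left out and spots of a probe were averaged. Probes well above background on at least 4 of 12 arrays were kept (29775), and the brightest kept probe stood for each of 22718 gene names. No spot was saturated. Genes are named as in the array design. Of the 12 member probes, 11 matched a RefSeq accession, each with the same symbol.

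Groups came from the labels. The test was limma 3.58.1, run in R 4.3.3 (lmFit and eBayes on all 12 arrays, two-sided), with Benjamini-Hochberg adjustment over all genes and 0.05 as threshold, after tests on simulated data. The members and gene lists were chosen with earlier results of these data known. All members are described. From each list up to 4 called genes with the largest change could be named, and for each called member the 3 nearest symbols. Csf1r, Adgre1, Itgam, Aif1, Col1a1, Bglap, Dmp1 and Phex served the tissue check.

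Replicate numbers come from the sample titles. Deviations from group means of arrays with the same number correlated at 0.34, 0.18, 0.22 and 0.13 between laser and control, at 0.25, 0.24, 0.16 and 0.34 between laser and bur, and at 0.28, -0.05, 0.28 and 0.08 between bur and control. Every same-number correlation passed a threshold of 0.1 for laser with control and laser with bur, but not for bur with control. For laser with control the lowest was 0.126, against 0.125 for the highest pair of different numbers. A pairing of laser with both other groups would also pair bur with control, so whether the numbers mark matched samples was not settled. Fits with the block are given as alternatives. Alternatives changed the background correction, normalization, filter, probe choice, array weights, samples fitted, block and arrays left out.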

Additional observations from a re-analysis of the deposited data

Results flagged for a closer look

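Nos2 at base 3475 was at -3.86 on bur replicate 3, far from the next bur array at -5.83. It was the only one of 27 groups of 4 arrays with a value so far from the rest by Dixon's test, and chance flags about 1 in 20 groups. The Nos2 probe at base 3646, which was too dim on most arrays for the gene-level test, was at -5.13 on laser replicate 3 and -5.07 on bur replicate 3, where the highest control was at -8.49. Arg1 was highest on the same replicates.

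Marco, also too dim for that test, was well above background on laser replicate 2 (-7.00) and on bur replicates 1 (-6.65) and 2 (-6.39), where the highest control was at -8.53. In the fit over all 45598 probes without a filter, Marco was higher with laser and with bur. That result rests on control signals below background, so its size and p-value are not given.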

How the results depend on the processing

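Cd14 was called higher in both comparisons with control under all 10 alternatives and in all 12 fits that left out 1 array. The number of members called with laser was 3, and it was 1 with array weights, 1 with only the 2 groups fitted and 6 with the replicate block (Arg1, Mrc1 and Gpnmb added). The share of all genes called was 22.3%, and in those fits 33.2%, 7.74% and 25.4%. Without 1 array the number of members called with laser ranged from 1 to 4, being 1 when laser 1, 2, 3 or 4, bur 1 or 2, or control 1 or 4 was left out. The share of all genes called ranged from 5.48% to 35.2% over those fits. With bur the number of members called was 4, and 8 with normexp (7 higher and Nos2 lower), 1 with only the 2 groups fitted and 7 with the replicate block (Mrc1, Cd68 and Gpnmb added). The share of all genes called was 26.2%, and in those fits 35%, 19.5% and 29%. Without 1 array the number of members called with bur ranged from 1 (control 1) to 7 (control 3), and was 2 without bur 1, bur 3 or control 4. The share of all genes called ranged from 12.3% to 37% over those fits. With normexp the median of all genes moved to -0.08 with laser and -0.24 with bur. Over all genes limma called 5061 with laser, 7535 with array weights, 3172 without a filter and 1758 with only these groups, and 1245 to 7994 without 1 array. With bur it called 5948, and 2789 to 8397 without 1 array.

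The second probe of Nos2, an alternative chosen after seeing the data, gave 1.28 with laser, 1.51 with bur and -0.23 for laser minus bur, but no control array measured it above background, and with control signal floored the log2 values were -0.15 and 0.08, so no turned sign was measured. Laser minus bur also turned with array weights for Arg1 (0.10) and Cd163 (-0.16). Without 1 array it ranged from -0.75 to 0.62 for Arg1, -0.39 to 0.065 for Trem2, -0.57 to 0.0025 for Msr1, -0.55 to 0.032 for Mrc1, -0.25 to 0.26 for Cd163 and -0.18 to 0.81 for Nos2. The cause of these changes was not tested. Slide and treatment cannot be told apart, and dim probes limit Marco and Nos2.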
